A study of Mus musculus with 12 samples.

Results

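ITIH1, ITIH2, ITIH3 and ITIH4, the genes for inter-alpha-trypsin inhibitor heavy chains, and AMBP, the gene for their light chain, were followed across 12 xenograft tumors. The 5 genes were taken by symbol from a table of 36292 human gene symbols, and all 5 were among the 15836 genes with enough counts to test. The tumors were grown from Hep3B, a human hepatocellular carcinoma cell line, under the skin of BALB/c nu/nu female mice about 8 weeks old, a strain that lacks a thymus. Treatment began near a tumor volume of 500 mm3 and was by mouth, once a day. Tumors of 3 separate mice per group were taken 8 hours after dose 4. The groups received vehicle, H3B-6527 at 300 mg/kg (a selective FGFR4 inhibitor), lenvatinib at 10 mg/kg (which blocks several receptor kinases, VEGF receptors and FGF receptors included), or H3B-6527 and lenvatinib together, called the combination below. The labels give no separate doses for the combination, so its comparisons with the single agents, non-additivity included, may not be at equal doses. All groups carried the same tumor line, so every value describes 1 line.

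The liver secretes inter-alpha-trypsin inhibitor into plasma. AMBP encodes a precursor that is cut into alpha-1-microglobulin, a small heme- and radical-binding protein, and bikunin, a Kunitz-type protease inhibitor that carries a chondroitin sulfate chain. The heavy chains encoded by ITIH1, ITIH2 and ITIH3 are joined to bikunin through that chain, and they can be handed on to hyaluronan, where they stabilise extracellular matrix. The ITIH4 protein circulates without bikunin and is an acute phase protein.

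Library totals ran from 23.8 to 40.9 M (mega) counts, and the smallest belonged to H3B-6527 replicate 3. Levels are CPM (counts per M of the library total after TMM scaling), with SD over 3 tumors. Changes are log2 fold changes with SE from edgeR's quasi-likelihood test, with p-values adjusted over all 15836 genes and a threshold of 0.05. All 13 markers looked up for hepatocyte-derived tumor cells had counts, none with a mean under 1 CPM. KRT8, KRT18 and EPCAM among them are general epithelial genes, so they do not mark liver origin. The summed level of the 13 was 95978 to 105517 CPM with vehicle and 102461 to 123744 CPM with lenvatinib. It was 144786 to 205204 CPM with H3B-6527 and 174160 to 195266 CPM with the combination. Of the 13, 7 rose and 3 fell with H3B-6527, and 8 rose and 2 fell with the combination. The background for this and the other marker lists was 25.2% of all genes tested higher and 24.3% lower with H3B-6527. With the combination it was 24.8% and 25.3%. ALB (albumin) was the largest part of the summed level, at 35396 CPM with vehicle and 78909 CPM with H3B-6527. The 3 of the 13 that fell with H3B-6527 were APOA2, KRT8 and KRT18. Fewer cells of a type and less RNA per cell cannot be told apart in whole tumors. Markers of host cell types, looked up as human symbols, were mostly near 0: 8 of 9 endothelial, 7 of 10 fibroblast and 5 of 9 macrophage markers had a mean under 1 CPM. Host cells here are mouse cells. Whether these values come from the tumor line or from mouse reads cannot be told, so they give no amount of host cells. The summed fibroblast list, in which DCN and LUM had under 0.1 CPM in every group mean, was 115 to 124 CPM with vehicle, 103 to 120 CPM with lenvatinib, 48.9 to 61.5 CPM with H3B-6527 and 58.3 to 59.2 CPM with the combination. Of its 5 genes tested, 4 fell with H3B-6527, and most of the sum was PDGFRA (68.0 CPM with vehicle and 22.8 CPM with H3B-6527) and PDGFRB (43.8 and 27.2 CPM). The macrophage list summed to 196 to 214, 178 to 185, 151 to 209 and 163 to 198 CPM in the same order, and 3 of its 7 genes tested rose and 1 fell with H3B-6527. Most of that sum was CD68, higher with H3B-6527 (93.0 and 156 CPM), and LYZ, lower (107 and 9.50 CPM), so the sum hides opposite differences. The endothelial list summed to between 2.31 and 4.62 CPM in all tumors. The markers in this paragraph were named after their values were seen. The part of these markers in the results was not tested.

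The first question was how the FGFR4 inhibitor on its own changed these genes relative to vehicle. The family split: AMBP, ITIH1, ITIH3 and ITIH4 rose, and ITIH2 fell. All 5 members passed the test, 4 higher and 1 lower, where 25.2% of all genes tested were called higher and 24.3% lower. The median change of the members was 0.93, against 0.01 over all genes. Statements below that groups did not overlap only describe the members, since the share of all genes without overlap was not counted.

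The bikunin precursor gene AMBP stood at 1206, 1206 and 1185 CPM in the vehicle tumors and at 2504, 2263 and 1569 CPM in the H3B-6527 tumors. Every treated tumor lay above every vehicle tumor, and replicate 3 of the treated group was the lowest of its group. AMBP rose by 0.82 ± 0.16 (adjusted p = 8.55e-04), a 1.76-fold rise with a 95% interval of 1.40 to 2.22.

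ITIH1 showed the largest rise of the 5 members. Its level was 86.4, 75.8 and 58.4 CPM with vehicle and 407, 421 and 248 CPM with H3B-6527. The groups did not overlap, and replicate 3 was again the lowest treated tumor. ITIH1 rose by 2.29 ± 0.21 (adjusted p = 5.66e-06), or 4.88-fold, and 1.69% of all genes tested had a higher value.

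ITIH3 encodes the heavy chain found with bikunin in pre-alpha-inhibitor. It was at 78.6, 79.1 and 62.7 CPM with vehicle and at 137, 167 and 116 CPM with H3B-6527, without overlap. ITIH3 rose by 0.93 ± 0.13 (adjusted p = 7.93e-05), or 1.90-fold.

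ITIH4, the acute phase member, was at 3.18, 1.91 and 2.10 CPM with vehicle and at 13.5, 8.27 and 6.91 CPM with H3B-6527. It was the member with the fewest counts, 269 over the vehicle tumors and 995 over the H3B-6527 tumors, so counting error weighs most on it. Between the H3B-6527 tumors its spread (SD of log2 CPM 0.496) was nonetheless below that of ITIH2 (0.595). ITIH4 rose 4.01-fold, with an interval of 2.66 to 6.05 (SE 0.27 on the log2 scale, adjusted p = 8.38e-05). Its antisense neighbour ITIH4-AS1 had 1 count over all 12 tumors. The strand setting of the counting is not given in the sources used here, so reads of that pair cannot be told apart.

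ITIH2 went the other way. Its level was 1385, 1401 and 1347 CPM with vehicle, a spread of 2.03% of the mean, and 376, 701 and 819 CPM with H3B-6527, a spread of 36.3%. All 3 treated tumors lay below all vehicle tumors, and the one farthest from vehicle was replicate 1. ITIH2 fell by 1.13 ± 0.25 (adjusted p = 0.00261), to 0.459 times the vehicle level with an interval of 0.316 to 0.664, and 93.1% of all genes had a higher value.

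**Figure D1:**
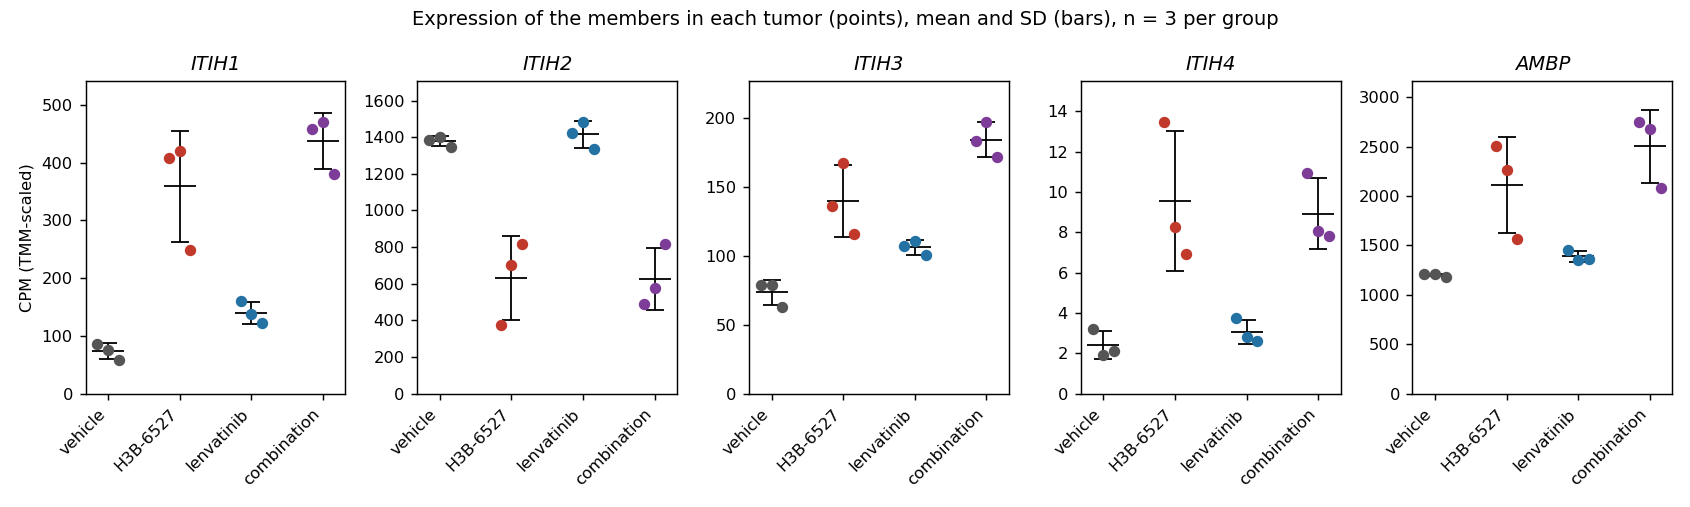
Level of each member in CPM (vertical axis, from 0) in the 12 tumors by group; points are tumors, bars the mean and SD of 3 tumors. ITIH2 sits between 376 and 819 CPM in the H3B-6527 and combination tumors and between 1338 and 1484 CPM in the others, while the other 4 members are higher in those tumors than with vehicle.

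The H3B-6527 tumors differed in how far the members had moved. Replicate 3, the smallest library, was the nearest to the vehicle mean for all 5 members: AMBP was 0.39 above it on the log2 CPM scale, ITIH1 1.77, ITIH3 0.66 and ITIH4 1.54 above, and ITIH2 lay at −0.75. In replicate 1 the same differences were 1.06, 2.49, 0.90, 2.50 and −1.87. Without replicate 3 the fitted changes were 0.99 for AMBP, 2.49 for ITIH1, 1.05 for ITIH3, 2.18 for ITIH4 and −1.36 for ITIH2. All 5 calls held without any single tumor.

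Tumors given both agents showed the same split against vehicle. Again 4 members rose and 1 fell, where 24.8% of all genes were called higher and 25.3% lower, and the median change was 1.33 against 0.01 over all genes. This comparison shares its vehicle tumors with the previous one. AMBP was at 2752, 2679 and 2081 CPM in the combination tumors and rose by 1.06 ± 0.16 (adjusted p = 1.28e-04), or 2.09-fold. ITIH1 was at 459, 471 and 381 CPM and rose by 2.57 ± 0.21 (adjusted p = 3.59e-06), or 5.94-fold. All 3 combination tumors exceeded all vehicle tumors for both genes, and replicate 3 was the lowest of the combination group.

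ITIH3 was at 183, 198 and 172 CPM with the combination and rose by 1.33 ± 0.13 (adjusted p = 6.76e-06), or 2.51-fold. ITIH4 was at 10.9, 8.05 and 7.80 CPM and rose by 1.90 ± 0.27 (adjusted p = 1.26e-04), or 3.73-fold. Neither gene's groups overlapped. ITIH2 was at 488, 576 and 817 CPM, below every vehicle tumor, and fell by 1.14 ± 0.25 (adjusted p = 0.00238), to 0.455 times the vehicle level. The tumor in which ITIH2 had fallen least was replicate 3, the largest library of the series (40.9 M counts). It was also the combination tumor nearest to the vehicle mean for all 5 members. In the H3B-6527 group the nearest tumor was the smallest library (23.8 M counts).

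The combination against lenvatinib asks what adding H3B-6527 to lenvatinib changed. All 5 members passed, with 4 higher and 1 lower, where 19.1% of genes were called higher and 20.9% lower. ITIH1 rose by 1.64 ± 0.20 (adjusted p = 1.15e-04), ITIH4 by 1.55 ± 0.27 (adjusted p = 8.45e-04), AMBP by 0.85 ± 0.16 (adjusted p = 0.00109) and ITIH3 by 0.80 ± 0.13 (adjusted p = 4.76e-04). ITIH2 fell by 1.17 ± 0.25 (adjusted p = 0.00303). For each of the 5 genes, the 3 combination tumors lay wholly to one side of the 3 lenvatinib tumors. The share of all genes separated in this way was not counted.

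Lenvatinib as a single agent was compared with vehicle next. No member passed the test in edgeR, where 0% of genes were called in either direction (1698 of 15836 had an unadjusted p under 0.05). ITIH1 was at 160, 137 and 122 CPM, above every vehicle tumor, with a log2 fold change of 0.93 ± 0.20 (unadjusted p = 5.40e-04, adjusted p = 0.139). ITIH3 was at 107, 111 and 100.4 CPM, also above every vehicle tumor, with a value of 0.53 ± 0.13 (unadjusted p = 0.00111, adjusted p = 0.162). These were the members with the lowest p.

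Both genes passed in a fit of the lenvatinib and vehicle groups alone (adjusted p = 0.0410 for ITIH1 and 0.0373 for ITIH3) and with DESeq2 (0.00162 and 0.0185). Over all genes, the fit of the 2 groups alone called 101 higher and 88 lower, and DESeq2 called 128 and 117. Over all 11 alternatives adjusted p ran from 0.00162 to 0.649 for ITIH1 and from 0.0185 to 0.675 for ITIH3, with values from 0.79 to 1.06 and from 0.43 to 0.59. AMBP was at 1451, 1349 and 1366 CPM with lenvatinib, above the vehicle tumors, with a log2 fold change of 0.21 (95% interval −0.12 to 0.55, adjusted p = 0.684). ITIH4 had a value of 0.35 (−0.26 to 0.96, adjusted p = 0.725) and overlapped with vehicle. ITIH2 was at 1423, 1484 and 1338 CPM, overlapping with vehicle, with a value of 0.04 (−0.49 to 0.57, adjusted p = 0.974).

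The combination against H3B-6527 asks what lenvatinib added to H3B-6527. No member passed, where 0.0126% of genes (2 of 15836) were called higher and 0% lower. ITIH3 was the member with the smallest p, at 0.40 ± 0.13 (95% interval 0.12 to 0.67, unadjusted p = 0.00782, adjusted p = 0.384), and its 3 combination tumors lay above the 3 H3B-6527 tumors. The intervals of the others were −0.14 to 0.71 for ITIH1, −0.09 to 0.58 for AMBP, −0.65 to 0.44 for ITIH4 and −0.54 to 0.52 for ITIH2.

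A contrast of the combination plus vehicle minus both single agents tested whether the effects of the agents added up on the log2 scale. No member passed, and 0% of genes were called (854 had an unadjusted p under 0.05). The ITIH1 value was −0.64 (95% interval −1.25 to −0.04, unadjusted p = 0.0391, adjusted p = 0.909). Intervals for the other members all included 0: −0.80 to 0.70 for ITIH2, −0.52 to 0.25 for ITIH3, −1.28 to 0.37 for ITIH4 and −0.44 to 0.51 for AMBP.

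**Figure D2:**
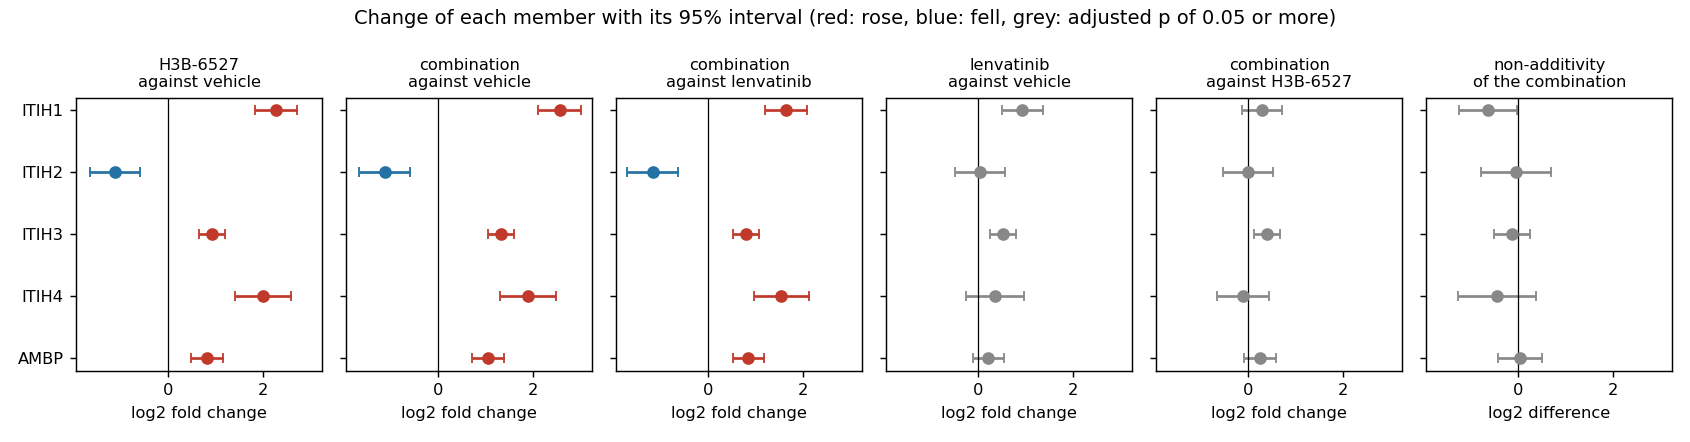
Log2 fold change of each member (horizontal axis) with its 95% interval in the 5 pairs of groups and the non-additivity contrast; red rose, blue fell, grey did not pass. In the 3 comparisons of a group given H3B-6527 with a group not given it, ITIH2 lies between −1.17 and −1.13 and the other members between 0.80 and 2.57.

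Ratios of counts within a library need no scaling between libraries. AMBP to ITIH2 stood at 0.871, 0.861 and 0.88 in the vehicle tumors and at 1.02, 0.909 and 1.02 with lenvatinib. With H3B-6527 it was 6.67, 3.23 and 1.92, and with the combination 5.64, 4.65 and 2.55. The log2 ratio was 1.99 higher with H3B-6527 than with vehicle and 2.22 higher with the combination (exact permutation p = 0.1 for each, 2-sided, the smallest that 3 against 3 tumors can give).

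The ratio of ITIH1 to ITIH2 was 0.0624, 0.0541 and 0.0434 with vehicle, 1.08, 0.601 and 0.303 with H3B-6527, and 0.941, 0.818 and 0.467 with the combination. With lenvatinib it was 0.113, 0.0926 and 0.0913, above all vehicle tumors and below all tumors given H3B-6527. The difference on the log2 scale was 3.47 for H3B-6527, 3.75 for the combination and 0.90 for lenvatinib against vehicle (exact permutation p = 0.1 for each, 2-sided). Among the members that rose, ITIH1 also gained on ITIH3: their ratio was 0.931 to 1.10 with vehicle, 1.22 to 1.49 with lenvatinib, 2.15 to 2.98 with H3B-6527 and 2.22 to 2.50 with the combination.

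The make-up of the heavy chain counts differed between groups. ITIH2 held 90.2 ± 1.25% of the counts of the 4 heavy chain genes with vehicle and 85.0 ± 0.915% with lenvatinib, against 54.4 ± 14.3% with H3B-6527 and 49.3 ± 8.76% with the combination. ITIH1 held 4.80 ± 0.795%, 8.40 ± 0.923%, 32.3 ± 11.4% and 35.2 ± 6.62% in the same order. ITIH3 held 4.80 ± 0.464%, 6.38 ± 0.0434%, 12.4 ± 2.49% and 14.8 ± 1.99%. These are shares of counts, not corrected for transcript length, and they compare groups, not genes. The 4 heavy chains summed to 1527 ± 49.5 CPM with vehicle and 1665 ± 89.6 CPM with lenvatinib, against 1140.0 ± 187 CPM with H3B-6527 and 1257 ± 118 CPM with the combination. Per tumor the sum was 1470 to 1558 CPM with vehicle and 933 to 1297 CPM with H3B-6527, without overlap, while AMBP was higher in the latter tumors.

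**Figure D3:**
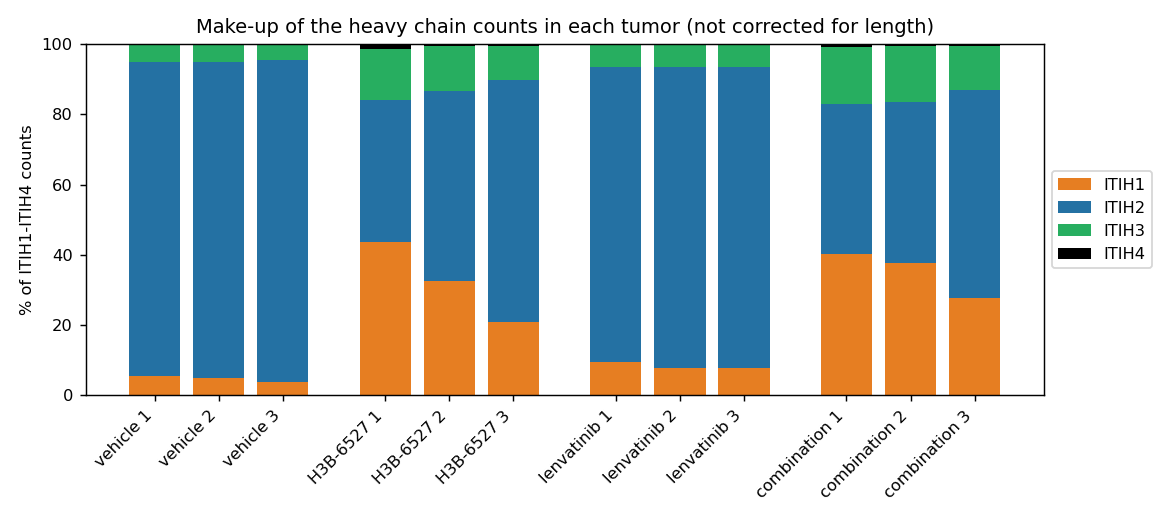
Share of each heavy chain gene in the summed ITIH1 to ITIH4 counts (vertical axis, percent) in each of the 12 tumors. ITIH2 holds 84.0 to 91.6% in vehicle and lenvatinib tumors and 40.3 to 68.8% in H3B-6527 and combination tumors.

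For each member the 3 genes most like it were taken by Pearson correlation of log2 CPM over the 12 tumors, among 12046 other genes, as a description: the tumors share their groups, and no p is given. The genes most like ITIH2 were MCM7, a subunit of the replicative helicase (r = 0.99), SMS, spermine synthase (0.99), and SVIP, a small inhibitor of ER-associated degradation (0.99). MCM7 was at 280.3 ± 1.55 CPM with vehicle, 146 ± 49.2 CPM with H3B-6527, 259 ± 5.40 CPM with lenvatinib and 135 ± 24.9 CPM with the combination. Nearest to ITIH1 were ADCK2, the plasma serpin SERPINA4 and the peroxisome assembly gene PEX16 (0.99 each). Nearest to ITIH3 were ASGR1, a subunit of the hepatocyte asialoglycoprotein receptor (0.99), TMEM63B (0.98) and the glutamine transporter SLC38A3 (0.98). The list for ITIH4 was MARC2, the haptoglobin-related gene HPR and ALDH5A1 (0.99 each). HPR has a near-identical copy in haptoglobin, so its counts are uncertain. For AMBP the list was the coenzyme Q methyltransferase COQ5, TMEM176B and cytochrome b5 (CYB5A), at 0.99 each.

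Tumors of one group were compared for how the members varied around their group means. After subtraction of the group means, the deviations of AMBP and ITIH1 over the 12 tumors had r = 0.80, those of ITIH1 and ITIH3 0.86, and those of AMBP and ITIH2 −0.83. AMBP and ITIH2 deviated by −0.08 to 0.07 in the vehicle and lenvatinib tumors, so their r rests mostly on the tumors given H3B-6527. In replicate 3 of the H3B-6527 and combination groups, AMBP deviated by −0.4 and −0.26 and ITIH2 by 0.45 and 0.42. ITIH1 was lowest in replicate 3 of every group (−0.31 with vehicle, −0.49 with H3B-6527, −0.19 with lenvatinib and with the combination). ITIH3 was lowest there too (−0.22, −0.26, −0.08 and −0.1 in the same order). ITIH4 was highest in replicate 1 of every group (0.44, 0.55, 0.3 and 0.31). The r of ITIH1 with ITIH3 includes this shared order of replicates, whose cause was not tested. The weakest pairs were ITIH2 with ITIH3 (−0.14) and ITIH3 with ITIH4 (0.23). These values share libraries and scaling, and they are given as a description.

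Genes that handle hyaluronan, the matrix sugar to which heavy chains are transferred, changed in both directions with H3B-6527. Of 17 in the table, the heavy chain genes ITIH5 and ITIH6 included, 9 had enough counts to test. Of those 9, 2 rose and 4 fell (2 and 5 with the combination), with a median of −0.59 against 0.01 over all genes. Among all genes tested, 25.2% were called higher and 24.3% lower with H3B-6527 (24.8% and 25.3% with the combination). The share of the list that rose was near that background. The share that fell was above it, in a list of only 9 tested genes, and this difference was not tested. The membrane hyaluronidase gene TMEM2 fell by 1.28 ± 0.14 (adjusted p = 1.47e-05), from 317 to 130.3 CPM, and HYAL2, another hyaluronidase, by 1.23 ± 0.11 (adjusted p = 3.29e-06). HAS3, a hyaluronan synthase, fell by 1.69 ± 0.27 (adjusted p = 2.42e-04), from 3.03 to 0.937 CPM. The hyaluronan-binding proteoglycan gene VCAN fell by 2.95 ± 0.49 (adjusted p = 3.33e-04), with 159 counts in the vehicle group and 18 in the H3B-6527 group. The 2 that rose, named after their values were seen, were the hyaluronidase gene HYAL1, by 0.55 ± 0.12 (adjusted p = 0.00249), and CEMIP, whose product takes part in hyaluronan breakdown, by 1.04 ± 0.21 (adjusted p = 0.00116). Also named after its values were seen, TNFAIP6, the gene for the protein that transfers heavy chains to hyaluronan, had 0 counts in all 12 tumors, where a floor of 3 counts corresponds to 0.0762 to 0.126 CPM. The other heavy chain genes were near that floor: ITIH5 had 29 counts over the vehicle tumors, 14 with H3B-6527, 16 with lenvatinib and 8 with the combination, and ITIH6 at most 2 in any group.

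In a list of genes that build the chondroitin chain, the link between bikunin and the heavy chains, more were called lower than higher with H3B-6527. Of 15 tested, FURIN among them as a proprotein convertase that builds no part of the chain, 1 rose and 7 fell with H3B-6527 (1 and 8 with the combination, 0 and 0 with lenvatinib), with a median of −0.21. The background was 25.2% of all genes higher and 24.3% lower with H3B-6527, with 24.8% and 25.3% for the combination. CSGALNACT1, which starts the chondroitin repeat, fell by 2.77 ± 0.21 (adjusted p = 1.26e-06), from 22.7 ± 1.61 to 3.29 ± 0.548 CPM. The chain polymerase gene CHPF fell by 1.35 ± 0.12 (adjusted p = 2.96e-06), and the sulfotransferase gene CHST3 by 2.85 ± 0.31 (adjusted p = 1.31e-05), from 296 to 36 counts over 3 tumors. The 1 that rose was CHST13, another chondroitin sulfotransferase gene, by 1.13 ± 0.14 (adjusted p = 2.73e-05). Named after their values were seen, CHSY1, another chain polymerase gene, fell by 1.46 ± 0.19 (adjusted p = 5.56e-05), and FURIN had a value of −0.21 ± 0.10 (adjusted p = 0.102).

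Liver transcription factors went both ways. Of 16 tested, 5 rose and 2 fell with H3B-6527, and 6 rose and 1 fell with the combination, with medians of 0.01 and 0.15. Over all genes, 25.2% were higher and 24.3% lower with H3B-6527, and 24.8% and 25.3% with the combination. With a median over all genes of 0.01 in both, the counts for the list are not a result about these genes as a group. ONECUT1 (HNF6) rose by 1.55 ± 0.11 (adjusted p = 1.06e-06), from 21.9 to 64.1 CPM, and the bile acid receptor NR1H4 by 1.12 ± 0.13 (adjusted p = 2.01e-05). HNF4A rose by 0.64 ± 0.09 (adjusted p = 9.93e-05), from 299.8 to 468 CPM, while ONECUT2 fell by 1.07 ± 0.13 (adjusted p = 3.12e-05).

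**Figure D4:**
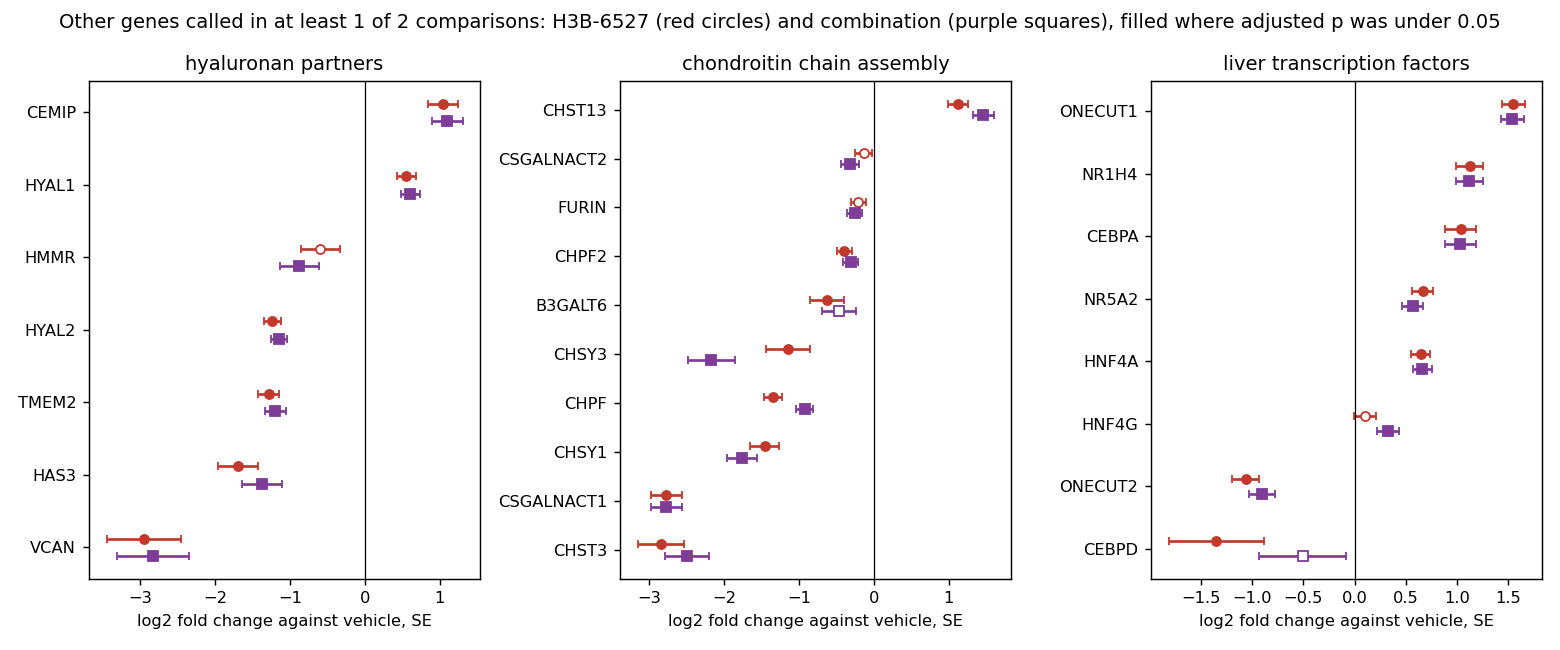
Log2 fold change against vehicle (horizontal axis, bars SE) of those hyaluronan partners, chondroitin chain genes and liver transcription factors that passed the test in at least 1 of the 2 comparisons; red circles are H3B-6527, purple squares the combination, filled symbols passed the test. CSGALNACT1 and CHST3 lie below −2, and ONECUT1 above 1, in both comparisons.

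Most genes of a list drawn up for other plasma proteinase inhibitors rose. Named after their values were seen, SPINT1 and SPINT2 in it encode membrane inhibitors, and CPB2 encodes a carboxypeptidase, not an inhibitor. Of 15 tested, these included, 10 rose and 2 fell with H3B-6527 (median 1.10). The counts were 11 and 2 with the combination (median 1.23), and 0 and 0 with lenvatinib (median 0.23). The background was 25.2% of all genes higher and 24.3% lower with H3B-6527, and 24.8% and 25.3% with the combination. The antiplasmin gene SERPINF2 rose by 1.95 ± 0.18 (adjusted p = 4.55e-06), from 549.9 ± 47.6 to 2123 ± 605 CPM, SERPINA4 (kallistatin) by 1.42 ± 0.13 (adjusted p = 4.64e-06), SERPINA5 (protein C inhibitor) by 1.22 ± 0.12 (adjusted p = 7.34e-06) and SERPINA10 by 0.94 ± 0.11 (adjusted p = 1.87e-05). The 2 that fell, named after their values were seen, were the membrane Kunitz inhibitor SPINT1, by 0.85 ± 0.10 (adjusted p = 2.05e-05), and the tissue factor pathway inhibitor TFPI, by 1.07 ± 0.12 (adjusted p = 1.91e-05).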

How the data were processed

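RNA of 12 tumors was sequenced, each library on 4 lanes. The authors deposited expected counts per gene symbol, not scaled between libraries (40% of values were more than 1e-06 from a whole number). STAR, kallisto, GRCh37 and GRCm38 are named in the submitters' processing notes; versions, annotation and the handling of mouse reads are not given in the sources used here. Expected counts were rounded. Genes were kept by filterByExpr, scaled by TMM and tested with edgeR 4.0.16 (robust quasi-likelihood, 2-sided, all 12 libraries in 1 fit, R 4.3.3), with Benjamini-Hochberg adjustment over all genes. The procedure was tested on simulated data. SE is the fold change divided by the root of F. The labels give no batch or pairing. Replicates are numbered in accession order. Log2 CPM used a prior count of 2.

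Alternatives were library totals, no low-count filter, DESeq2 1.42.0, limma 3.58.1 (voom), the 2 groups alone and each tumor left out. All 5 members are named. From each list of other genes up to 4 with the smallest p in H3B-6527 against vehicle are named, and for each member its 3 most similar genes with mean log2 CPM of at least 1. Further genes are marked as named after their values were seen. The members and lists were chosen with earlier results of these data known. Counting floors of 3 counts cover counting error only.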

Additional observations from a re-analysis of the deposited data

How the results depend on the processing

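All 15 calls of the members in the 3 comparisons of a group given H3B-6527 with a group not given it held, with their direction, under each of the 11 alternatives run. No paired analysis was run, since the tumors came from separate mice and the labels give no pairing. Library totals moved the median of all genes from 0.01 to as low as −0.14 and changed the split of H3B-6527 against vehicle from 3987 higher and 3842 lower to 3022 and 4960, of the combination against vehicle from 3924 and 4006 to 2923 and 5339, and of the combination against lenvatinib from 3020 and 3309 to 2293 and 4348. For lenvatinib against vehicle, 2 members (ITIH1 and ITIH3) were higher with DESeq2 and in the 2 groups alone. Over all genes that comparison gave 128 higher and 117 lower with DESeq2, 101 and 88 in the 2 groups alone, 28 and 13 with no low-count filter, 3 and 5 with voom, and 0 to 13 higher with a tumor left out. The combination against H3B-6527 gave 81 higher and 17 lower with DESeq2, 13 higher with no filter, 1 in the 2 groups alone and 0 to 16 with a tumor left out. Non-additivity gave 13 higher and 5 lower with DESeq2. Signs turned only for values that had not passed. In the combination against H3B-6527, ITIH2 was 0.0148 with voom, 1e-04 in the 2 groups alone and −0.28 to 0.23 with a tumor left out, and ITIH4 −0.28 to 0.23. ITIH2 was −0.0062 with library totals in lenvatinib against vehicle. With a tumor left out, non-additivity ran from −0.13 to 0.17 for AMBP, −0.32 to 0.19 for ITIH2 and −0.24 to 0.0191 for ITIH3. The cause was not tested. Depth limits ITIH5 and ITIH6, and among the members counting error weighs most on ITIH4.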

Other observations

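Genes known to lie beside the members in the human genome were described as a further list, taken from general knowledge and not from an annotation. Of 17 tested neighbours, 7 rose and 3 fell with H3B-6527, with a median of 0.01, and 7 rose and 4 fell with the combination. Among the genes tested, 25.2% were called higher and 24.3% lower with H3B-6527, with the same median of 0.01. With the combination the shares were 24.8% and 25.3%. Around the cluster of ITIH1, ITIH3 and ITIH4, the kinase gene NEK4 rose by 0.86 ± 0.09 (adjusted p = 7.81e-06), from 44.1 to 80.2 CPM, and GLT8D1 by 0.86 ± 0.09 (adjusted p = 9.99e-06). The nucleolar gene GNL3 in the same stretch fell by 1.09 ± 0.11 (adjusted p = 8.17e-06), from 90.7 to 42.5 CPM. TMEM110, also in that stretch, rose by 1.13 ± 0.20 (adjusted p = 5.71e-04). Named after their values were seen, PBRM1, SPCS1, SFMBT1 and MUSTN1 lie there too. PBRM1 was at 110.6 CPM with vehicle and 105.8 CPM with H3B-6527, SPCS1 at 57.5 and 57.6 CPM, and SFMBT1 at 24.6 and 23.8 CPM. MUSTN1, with few counts, was higher with H3B-6527. The next 5 genes were named after their values were seen. Beside ITIH2, KIN had a value of −0.18 ± 0.11 (adjusted p = 0.173) and ATP5C1 of 0.00 ± 0.09 (adjusted p = 0.994). TAF3, in the same stretch, fell by 0.34 ± 0.09 (adjusted p = 0.00594). Near AMBP, the acute phase genes ORM1 and ORM2 rose by 0.96 ± 0.18 (adjusted p = 9.24e-04) and 0.86 ± 0.15 (adjusted p = 5.96e-04). Other genes near AMBP differed less or went down. ZNF618 was at 13.6 CPM with vehicle and 13.7 CPM with H3B-6527, AKNA at 10.3 and 10.4 CPM, and COL27A1 at 321 and 265 CPM. KIF12, also near AMBP, was higher with H3B-6527 (35.6 and 55.3 CPM). ORM1 and ORM2 are near-identical copies, so how their reads were divided is uncertain.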
